A study of Mus musculus with 12 samples.

Results

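The genes described here are 9 markers of the somatic cells of the embryonic gonad, namely Amhr2, Rspo1, Wnt4, Foxl2, Gata4, Wt1, Nr5a1, Fst and Lhx9, measured on mouse arrays of sorted germ cells. They were followed through the platform annotation: 19 probe sets named only 1 of the 9 genes, and each gene was represented by its probe set with the highest mean over the 12 arrays. All 9 genes had a probe set, out of 18194 genes with one. The 9 were chosen with earlier results of these data known, and Amhr2 was among those results.

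The somatic cells of the fetal ovary surround the germ cells and supply signals to them. RSPO1 and WNT4 are secreted proteins that keep β-catenin signalling active in the ovary and hold back testis development, and FOXL2 is a transcription factor of the granulosa lineage. Follistatin, the product of Fst, binds activins, and AMHR2 is the receptor for anti-Müllerian hormone, carried by granulosa and Sertoli cells among others. GATA4, WT1, NR5A1 and LHX9 are transcription factors of the early gonad that act before its sex is fixed. Germ cells are not their classical source, so their signal in sorted germ cells is the question taken up here.

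The 12 arrays form 6 groups of 2. Of these, 4 groups are cultured PGC-like cells (PGCLCs), induced from embryonic stem cells of a C57BL/6 background that carry the BVSC reporters, Blimp1-mVenus and stella-ECFP. They are female cells cultured for 3 days and then aggregated for 6 days with somatic cells from the gonads of E12.5 female embryos (d3ag6), female cells after 6 days (d6 female), female cells after 3 days (d3), and male cells after 6 days (d6 male). The other groups are primordial germ cells (PGCs) from embryos, of females at embryonic day 12.5 (E12.5) and of unknown sex at embryonic day 9.5 (E9.5), both sired by C57BL/6 males with stella-EGFP and borne by wild-type BDF1 females. All cells were sorted on reporter fluorescence, so the d3ag6 and E12.5 samples are meant to hold germ cells and not the somatic cells they were mixed with. RNA was 5 ng for each array, equal to 500 cells, and was amplified by PCR before labelling.

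Values are log2 signals after quantile normalization. The median of all values was 4.81, and values below it are called dim here. The labels call the arrays of a group biological replicates. In the main fit, p-values set a group difference against the spread between such arrays, pooled over all 6 groups. limma draws that spread towards the spread of all genes. In these bulk samples, fewer cells of a type and less RNA per cell cannot be told apart. The d3ag6 cells also differ from d6 female and d3 cells in time after day 3, so aggregation and time cannot be told apart. Cultured cells and PGCs from embryos differ in culture, strain and reporters together, and these cannot be told apart either.

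Labelled cell type and other cell types were checked through marker lists. Of 10 germ cell markers, 9 were on the arrays, and all 9 exceeded 4.81 on both arrays of every group but E9.5, where 8 did. In d3ag6 cells the 8 macrophage and blood markers had a log2 summed signal of 11.12 to 11.43, against 8.87 to 8.88 at E12.5, 8.77 to 8.87 at d6 female and 8.50 to 8.55 at d3. The E9.5 arrays stood apart in other ways: their 3 red cell markers summed to 12.60 to 13.66 on the log2 scale and their 6 mesenchyme markers to 9.95 to 11.06. The E9.5 arrays also differed from each other, with higher Ctss, a cathepsin of macrophages, on replicate 1 than on replicate 2 (6.75 against 1.65). The 6 endothelium markers summed to 11.01 to 11.31 in d6 male, 9.57 to 10.60 in d6 female and 9.74 to 10.46 in E9.5 cells. They summed to 9.03 to 9.13 in d3ag6 cells, 8.83 to 8.89 at d3 and 8.36 to 8.42 at E12.5. At E12.5 against d6 female 5 of the 6 fell and 0 rose (10.1% and 9.33% of all genes). In d6 male against E9.5 cells 3 rose and 0 fell (6.04% and 4.55%). The d6 male and E9.5 arrays carry other array codes (EA0831 and EA0842) than the other 8 arrays (EA1013), so code and group cannot be told apart in E12.5 against E9.5.

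**Figure D1:**
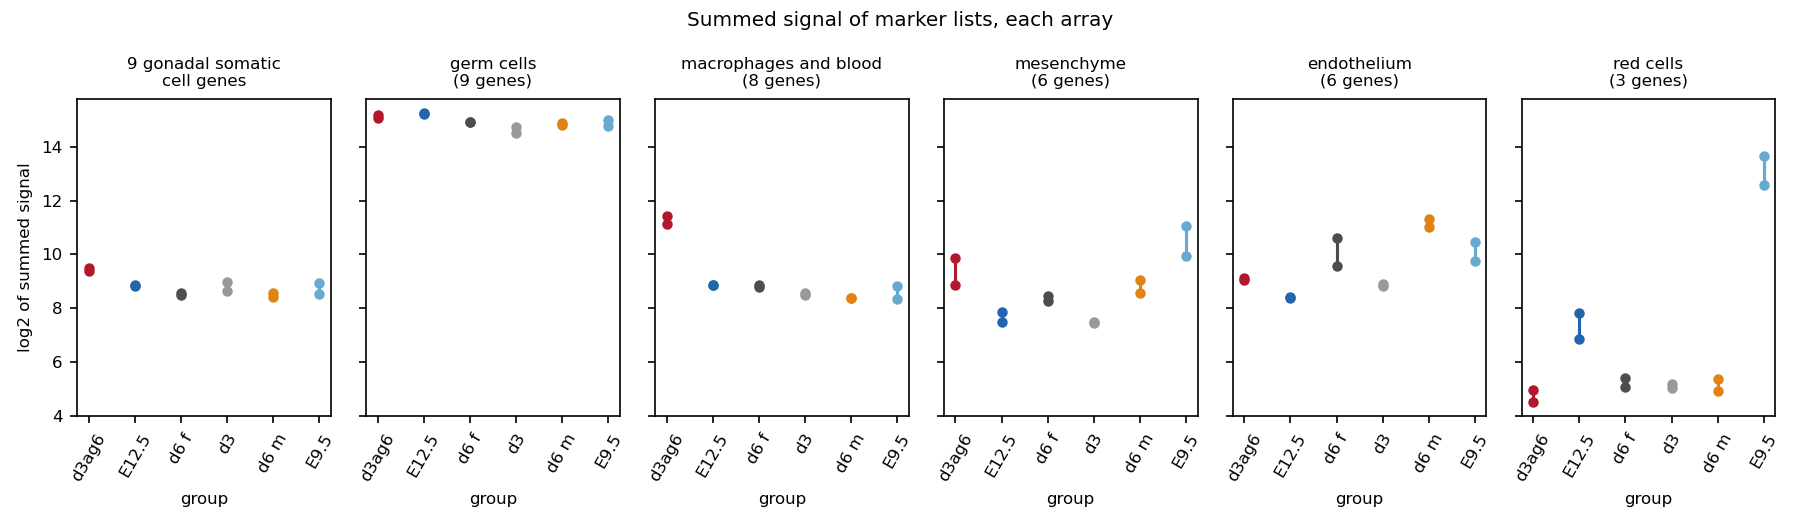
Log2 of the summed signal of each marker list (y axis) on each array, by group (x axis), with a line joining the 2 arrays of a group. The macrophage and blood list is highest in d3ag6, from 11.12 to 11.43, and the red cell list in E9.5, from 12.60 to 13.66, while the germ cell list lies between 14.53 and 15.25 in all groups.

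Promoters of the receptor gene Amhr2 and the WNT pathway ligand genes Rspo1 and Wnt4 are shown first, so that the letters bound by factor families among the 9 genes can be read beside the values. RefSeq promoter sequences of GRCm38.p6 were matched for 5 of the 9 genes, these 3 and Foxl2 and Lhx9. The 250 bases before the listed start are given for Amhr2 (chr15:102445117-102445366, plus strand, inside the annotated span of the gene, which begins at 102445002), Rspo1 (chr4:124986180-124986429, plus strand, its end just inside the annotated span of the gene) and Wnt4 (chr4:137277385-137277634, plus strand, ending at the base before the gene). Capitals mark matches on either strand to the letters searched.
Amhr2: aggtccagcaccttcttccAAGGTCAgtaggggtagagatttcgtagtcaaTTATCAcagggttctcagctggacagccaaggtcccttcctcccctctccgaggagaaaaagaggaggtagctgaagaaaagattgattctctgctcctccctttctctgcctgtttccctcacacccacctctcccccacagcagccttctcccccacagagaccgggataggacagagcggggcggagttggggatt
Rspo1: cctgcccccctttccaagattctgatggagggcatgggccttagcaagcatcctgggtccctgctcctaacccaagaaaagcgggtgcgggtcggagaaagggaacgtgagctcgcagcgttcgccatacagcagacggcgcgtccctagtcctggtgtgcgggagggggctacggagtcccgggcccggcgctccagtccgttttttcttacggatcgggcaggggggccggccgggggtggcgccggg
Wnt4: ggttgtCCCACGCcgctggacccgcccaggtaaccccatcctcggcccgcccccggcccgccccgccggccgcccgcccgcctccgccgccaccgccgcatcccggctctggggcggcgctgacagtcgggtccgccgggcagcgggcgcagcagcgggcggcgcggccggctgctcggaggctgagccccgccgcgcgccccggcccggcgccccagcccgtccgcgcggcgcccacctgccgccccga

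The letters searched were AAGGTCA for NR5A1, AGATAA and TGATAA for GATA factors, GCGTGGG for WT1, CTTTGAA and CTTTGAT for TCF/LEF factors and TGTTTAC for forkhead factors. The Amhr2 window held the NR5A1 letters 231 to 225 bases before the start, and GATA letters on the opposite strand 199 to 194 bases before it. The Wnt4 window, with 85.2% G and C, held the WT1 letters on the opposite strand 244 to 238 bases before the start, and the Rspo1 window held none. The Lhx9 window held GATA letters on the opposite strand 59 to 54 bases before the listed start, and the Foxl2 window held none. The Lhx9 window (chr1:138842445-138842694, minus strand) lies inside the annotated span of the gene, which runs from 138825186 to 138848839. Among 32851 RefSeq windows of the same length, 4.08% held the NR5A1 letters, 16.6% the GATA letters and 4.30% the WT1 letters. The matches are descriptions of letters and say nothing of binding.

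Amhr2 is the type 2 receptor for anti-Müllerian hormone, and its signal was highest in d3ag6 cells. Its 2 arrays read 7.53 and 7.68 in d3ag6 cells, against 6.06 and 5.58 at E12.5, 4.54 and 4.44 at d6 female and 6.56 and 5.48 at d3. The d6 male arrays read 4.88 and 4.83, and the E9.5 arrays 4.49 and 4.55. Both d3ag6 arrays lay above all 10 others, the d3 and E12.5 arrays overlapped, and the d6 female and E9.5 arrays overlapped at the low end.

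In limma with Benjamini-Hochberg adjustment over 13436 genes, Amhr2 rose in d3ag6 cells against d6 female cells by 3.12 (SE 0.31, adjusted p = 0.00122). It rose by 1.59 against d3 (SE 0.31, adjusted p = 0.0129) and by 1.79 against E12.5 PGCs (SE 0.31, adjusted p = 0.00917). Amhr2 thus was higher after aggregation than in germ cells sorted from the embryo at E12.5. The d6 female arrays are dim for Amhr2, and with dim values set to 4.81 the change against d6 female was 2.79 (adjusted p = 0.0016). The day 3 cells, which had not been aggregated, were not at the low end: in d6 female cells Amhr2 fell by 1.53 against d3 (SE 0.31, adjusted p = 0.0301).

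Amhr2 rose at E12.5 against d6 female cells (1.33, SE 0.31, adjusted p = 0.0173) and against E9.5 PGCs (1.30, SE 0.31, adjusted p = 0.0165). With dim values set to 4.81 both changes were 1.01 (adjusted p = 0.0482 and 0.0416), while the change in d6 female cells against d3 was -1.21 and did not pass (adjusted p = 0.0668). The rise at E12.5 against d6 female missed the threshold when E12.5 replicate 1 (adjusted p = 0.127), d6 female replicate 1 (0.0737) or d6 female replicate 2 (0.084) was left out. The call against d6 female in d3ag6 cells held without any 1 of the 4 arrays (adjusted p = 0.011 to 0.0175). Against d3 it was lost without d3ag6 replicate 1 (adjusted p = 0.0623) or replicate 2 (0.082), and against E12.5 without d3ag6 replicate 2 (0.0694) or E12.5 replicate 2 (0.0784). The fall in d6 female cells missed the threshold when d6 female replicate 1 (adjusted p = 0.147), d6 female replicate 2 (0.135) or d3 replicate 1 (0.0888) was left out.

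The Amhr2 probe set used and the next brightest both carry the suffix that Affymetrix gives to sets with probes that may also match other transcripts. The next brightest gave 7.30 and 7.27 in d3ag6 cells, against 4.69 and 4.64 at d6 female, and over 22423 probe sets its difference was 2.63 (SE 0.36, adjusted p = 0.00755 in limma). On that set 3 of the 6 Amhr2 calls did not pass: E12.5 against d6 female (0.76, SE 0.36, adjusted p = 0.202), E12.5 against E9.5 (1.16, SE 0.36, adjusted p = 0.0517) and d6 female against d3 (-1.09, SE 0.36, adjusted p = 0.195). A dimmer probe set without that suffix read 4.62 and 4.95 in d3ag6 cells, against 1.46 to 2.99 on the other EA1013 arrays. All 3 probe sets thus had both d3ag6 arrays above every other array.

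**Figure D2:**
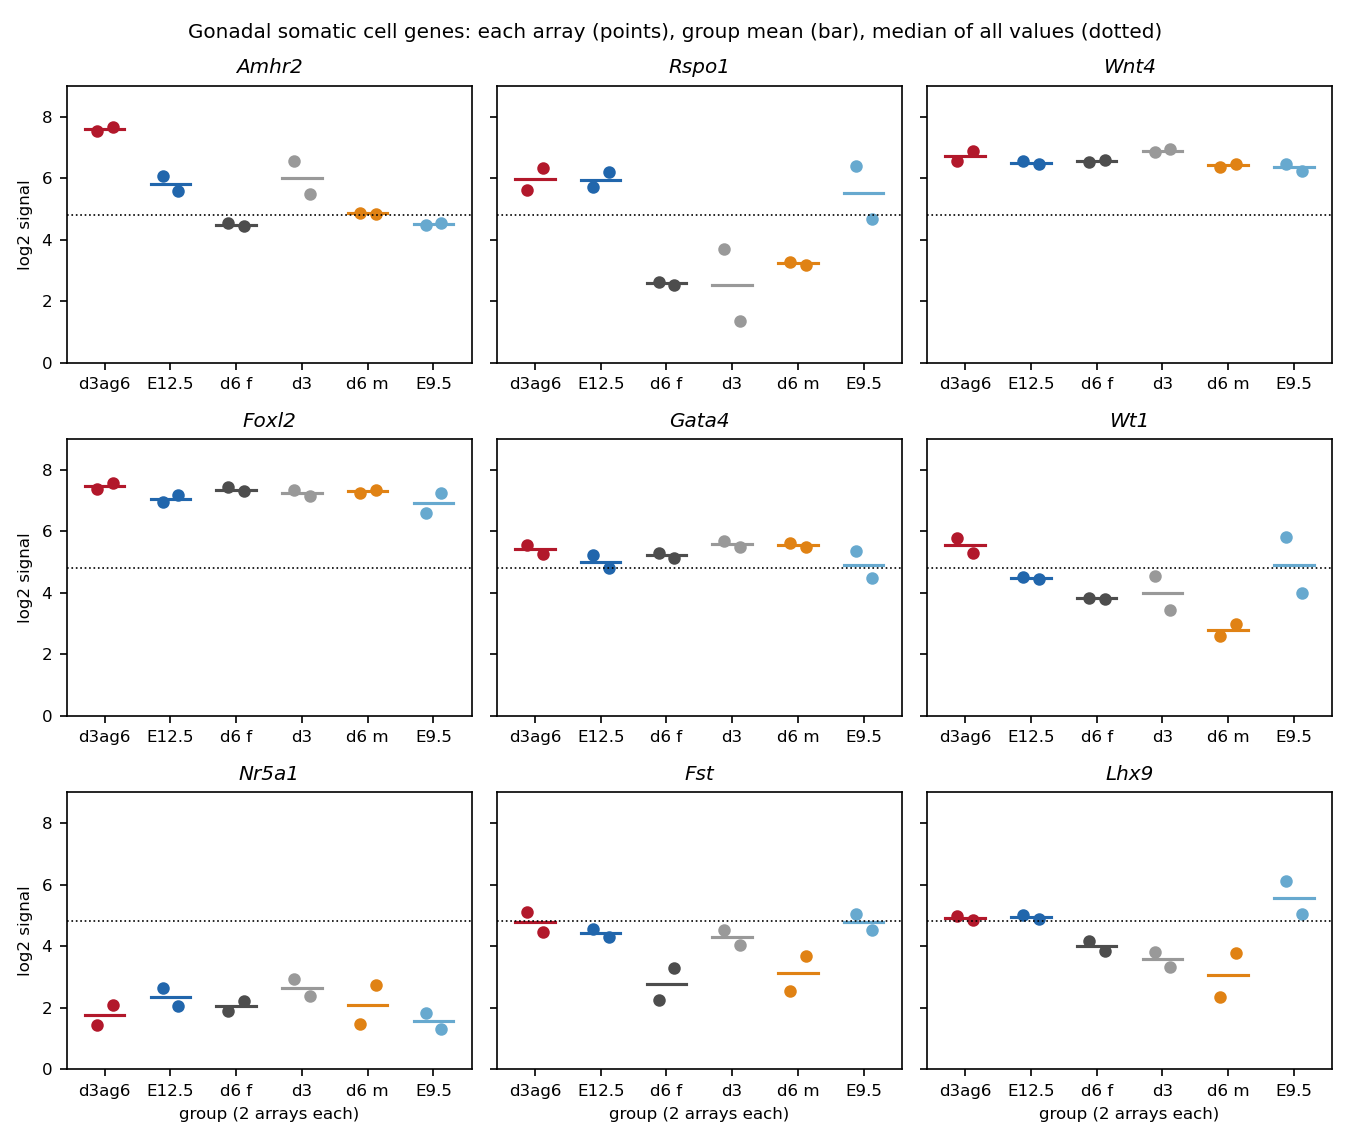
Log2 signal (y axis) of the 9 genes on each array (points) with the group mean (bar), by group (x axis, d6 f for d6 female and d6 m for d6 male); the dotted line is 4.81, the median of all values. Amhr2 is highest in d3ag6 at 7.53 and 7.68, Rspo1 is below 4.81 in all d6 and d3 arrays, and Nr5a1 stays at or under 2.93 on all arrays.

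Rspo1 encodes R-spondin 1, the ligand that stabilises WNT receptors in the ovary. It read 5.61 and 6.34 in d3ag6 cells, against 5.72 and 6.19 at E12.5, 2.63 and 2.52 at d6 female and 3.69 and 1.34 at d3. Its d6 male arrays read 3.29 and 3.17 and its E9.5 arrays 6.39 and 4.66. The d3ag6, E12.5 and E9.5 ranges overlapped at the high end, and the d3 range took in those of d6 female and d6 male at the low end.

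Rspo1 rose in d3ag6 cells by 3.40 against d6 female cells (SE 0.73, limma adjusted p = 0.0294) and by 3.46 against d3 cells (SE 0.73, adjusted p = 0.0175). It rose at E12.5 by 3.38 against d6 female (SE 0.73, adjusted p = 0.0124). Against E12.5, the d3ag6 difference was 0.02 with a 95% interval from -1.63 to 1.67, which is too wide to say that the groups are alike. Since the d6 female and d3 values lie below 4.81, the sizes are imprecise: once every value under 4.81 was raised to 4.81, the d3ag6 changes were 1.16 against either group and did not pass (adjusted p = 0.157 against d6 female and 0.141 against d3).

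Against d6 female, the call was lost without any 1 of the 4 arrays in d3ag6 cells (adjusted p = 0.0874 to 0.183) and at E12.5 (0.0535 to 0.0831). Against d3 it held without d3 replicate 1 (adjusted p = 0.00632) and was lost without d3 replicate 2 (0.0785), d3ag6 replicate 1 (0.0614) or d3ag6 replicate 2 (0.112). Rspo1 had a single probe set, so no other set could be compared.

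Wnt4 encodes a secreted ligand of the fetal ovary and kidney, and its probe sets disagreed. The brighter set, designed on an expressed sequence tag, read 6.57 and 6.88 in d3ag6 cells, against 6.55 and 6.47 at E12.5, 6.53 and 6.58 at d6 female and 6.84 and 6.96 at d3, with no call in any of the 7 comparisons. The other set, designed on the RefSeq transcript, read 5.98 and 6.40 in d3ag6 cells, against 6.04 and 5.97 at E12.5, 4.41 and 4.44 at d6 female and 5.83 and 6.41 at d3. On that set the d6 female and d6 male arrays (4.28 and 4.49) were the lowest, while E9.5 read 6.58 and 5.14.

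Fitted over all 22423 probe sets, the RefSeq-designed Wnt4 set rose in d3ag6 cells against d6 female by 1.77 (SE 0.41, limma adjusted p = 0.0495) and at E12.5 against d6 female by 1.58 (SE 0.41, adjusted p = 0.032). The brighter set gave 0.17 (adjusted p = 0.598) and -0.04 (adjusted p = 0.902) in the same comparisons over genes. The set was looked at after its values were seen, and which of the 2 follows Wnt4 RNA was not tested.

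Foxl2 had no call in any comparison. The set used read 6.61 to 7.57 over the 12 arrays, with a group mean of 7.48 in d3ag6 cells, 7.07 at E12.5, 7.36 at d6 female and 7.25 at d3. The other set was dim on all arrays, with a highest value of 2.62, and which of the 2 follows Foxl2 RNA was not tested. The difference in d3ag6 cells was 0.12 against d6 female (SE 0.21, limma adjusted p = 0.804) and 0.41 against E12.5 (SE 0.21, adjusted p = 0.295), with a 95% interval from -0.07 to 0.90 although the 2 groups did not overlap.

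**Figure D3:**
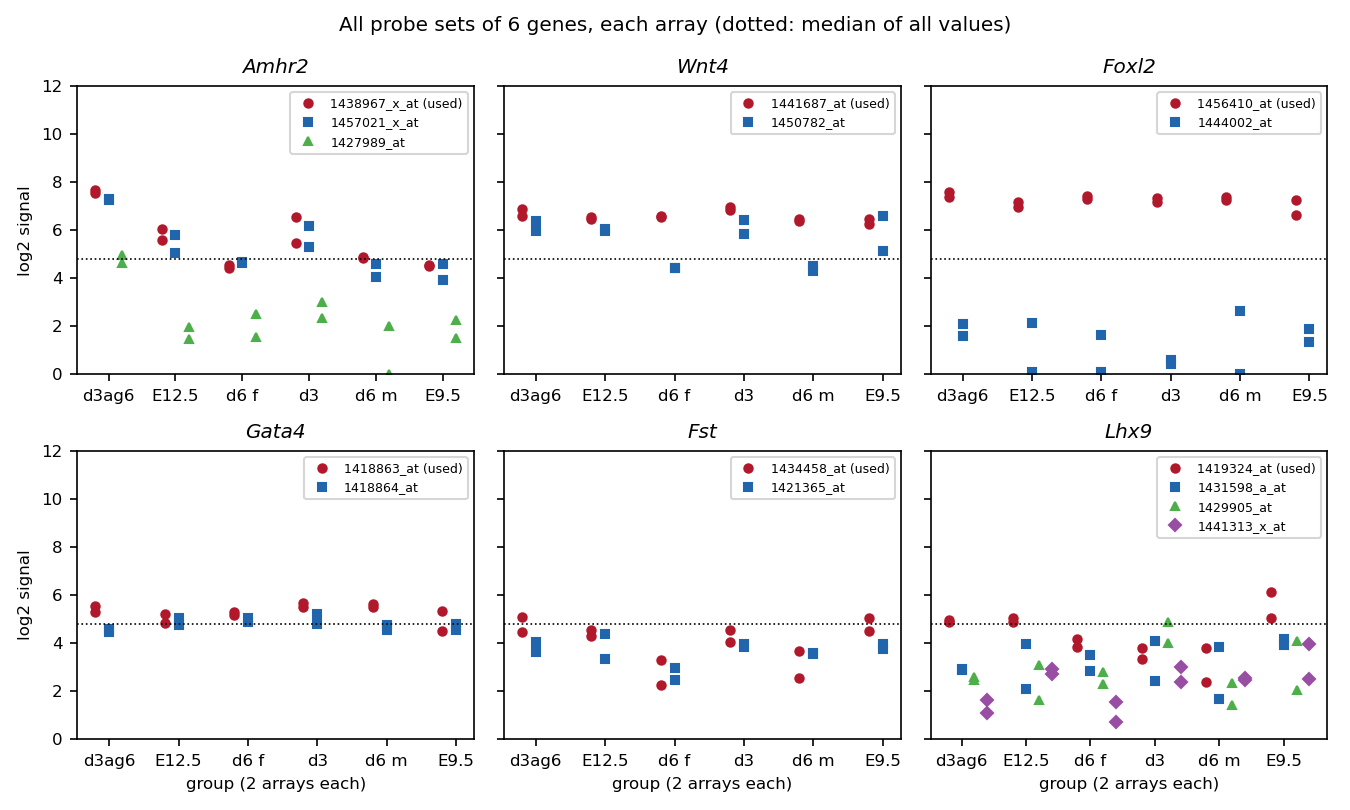
Log2 signal (y axis) of all probe sets of 6 genes on each array, by group (x axis, d6 f for d6 female and d6 m for d6 male), with the set used for the gene drawn as red circles; the dotted line is 4.81. For Wnt4 the set in blue drops to 4.41 and 4.44 in d6 female while the set in red stays at 6.53 and 6.58.

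Fst encodes follistatin. It read 5.10 and 4.47 in d3ag6 cells, against 4.56 and 4.30 at E12.5, 2.26 and 3.28 at d6 female and 4.54 and 4.04 at d3. The d6 male arrays read 2.54 and 3.67 and the E9.5 arrays 5.04 and 4.51, so both groups of day 6 cells lay below the other groups. Only 2 of the 12 arrays exceeded 4.81, 1 of d3ag6 and 1 of E9.5, which is how the gene passed the filter.

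Fst rose against d6 female in d3ag6 cells (2.01, SE 0.45, limma adjusted p = 0.0336) and at E12.5 (1.66, SE 0.45, adjusted p = 0.0316). With values below 4.81 set to it, the changes were 0.14 and 0.00. Both calls held without d6 female replicate 2 (adjusted p = 0.0446 in d3ag6 and 0.0299 at E12.5) and were lost without any other array of the comparison (0.105 to 0.22). Against d3, d3ag6 cells differed by 0.49 in Fst (SE 0.45, adjusted p = 0.581).

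Of the 4 transcription factors of the early gonad, none passed the test in d3ag6 or E12.5 cells in the fit over all 12 arrays. Wt1 read 5.79 and 5.31 in d3ag6 cells, against 4.52 and 4.46 at E12.5, 3.84 and 3.80 at d6 female and 4.54 and 3.45 at d3. The d6 male arrays were the lowest, at 2.60 and 3.00, and E9.5 read 5.82 and 4.0. Wt1 differed in d3ag6 cells by 1.73 from d6 female (SE 0.54, limma adjusted p = 0.0992) and by 1.55 from d3 (SE 0.54, adjusted p = 0.111), and neither passed the test. With dim values set to 4.81, both differences were 0.74.

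Lhx9 read 4.97 and 4.86 in d3ag6 cells, against 5.02 and 4.88 at E12.5, 4.17 and 3.85 at d6 female and 3.81 and 3.33 at d3. The d6 male arrays read 2.36 and 3.79, and E9.5 had the highest values, 6.13 and 5.04. The d3ag6 and E12.5 arrays overlapped and lay above the d6 female and d3 arrays, but the differences of 0.91 from d6 female (SE 0.46, limma adjusted p = 0.291) and 1.35 from d3 (SE 0.46, adjusted p = 0.109) did not pass. With dim values set to 4.81, both were 0.10. Its other 3 probe sets exceeded 4.81 on 1 array in all, a d3 array.

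Fitted on the 8 arrays coded EA1013 alone, a setting chosen after seeing the data, Wt1 and Lhx9 passed in d3ag6 cells. Against d6 female the adjusted p was 0.0316 for Wt1 and 0.0404 for Lhx9, and against d3 it was 0.0311 and 0.0085, with the differences themselves the same. That setting leaves the E9.5 and d6 male arrays out of the estimate of the spread. Fitted on the 4 arrays of a comparison alone, Wt1 passed in d3ag6 cells against d6 female (adjusted p = 0.0319) and against E12.5 (0.0391), and Lhx9 against d3 (0.0433). In that fit Amhr2 (adjusted p = 0.0921) and Rspo1 (0.0857) lost their calls in d3ag6 cells against d3, and Fst against d6 female (0.0652). At E12.5 against d6 female, Wt1 (0.0257) and Lhx9 (0.0216) passed there.

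Gata4 read 5.56 and 5.28 in d3ag6 cells, against 5.22 and 4.82 at E12.5, 5.29 and 5.15 at d6 female and 5.68 and 5.48 at d3. Its 12 values lay between 4.49 and 5.68, and no comparison passed in the fit over all 12 arrays. The difference between d3ag6 and d6 female was 0.20 (SE 0.28, limma adjusted p = 0.729), and -0.46 for its other probe set (SE 0.20, adjusted p = 0.245 over probe sets). Nr5a1, which encodes the steroidogenic factor SF-1, was dim throughout. Its highest value was 2.93, on a d3 array, and its other probe set reached 2.91, so it was not tested.

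**Figure D4:**
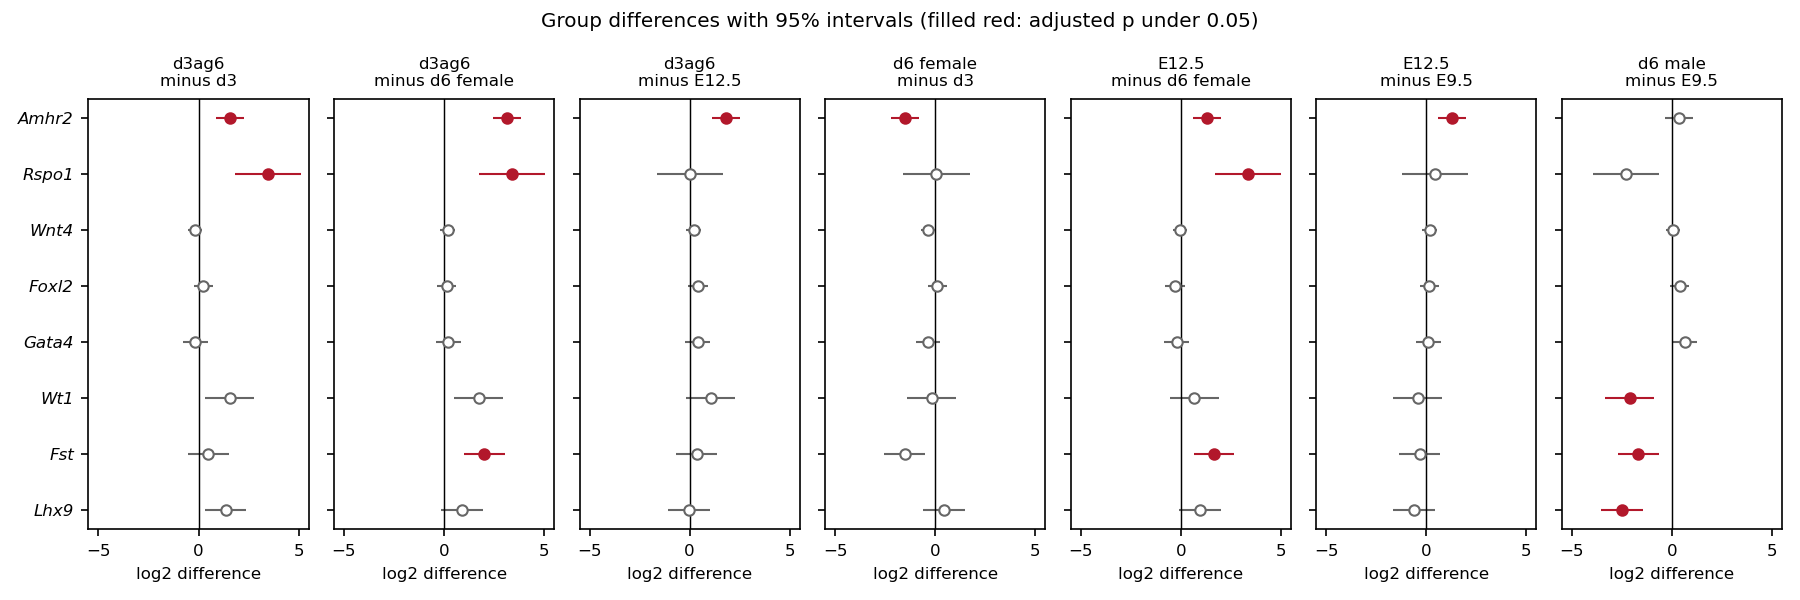
Differences between groups on the log2 scale (x axis) with 95% intervals for the 8 genes tested (rows), 1 panel for each of 7 comparisons; filled red points have an adjusted p under 0.05. Amhr2 and Rspo1 lie right of 0 in d3ag6 minus d6 female, at 3.12 and 3.40, while Foxl2 and Gata4 stay within 0.64 of 0 in all panels.

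Counted over the genes, 8 of the 9 passed the filter on dim genes, and some of them only through the groups where they are high, so the counts are descriptions. In d3ag6 cells against d6 female, 3 of the 8 rose and 0 fell, where 4.03% of all tested genes rose and 2.36% fell. Against d3, 2 of the 8 rose and 0 fell, where 5.81% of all genes rose and 4.84% fell. Against E12.5, Amhr2 rose and none of the other 7 was called, where 5.95% of all genes rose and 3.07% fell. At E12.5 against d6 female, Amhr2, Rspo1 and Fst rose and 0 fell, where 9.33% of all genes rose and 10.1% fell. In d6 female cells against d3, Amhr2 fell and 0 rose, where 2.34% of all genes fell and 1.72% rose. These comparisons share arrays of d3ag6, d6 female and d3, so their calls are not independent.

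Cells of the embryo were compared by age, with array code and group not to be told apart. At E12.5 against E9.5, Amhr2 alone of the 8 rose and 0 fell, where 12.9% of all genes rose and 10.7% fell, and the call was lost without E12.5 replicate 1 (adjusted p = 0.12), E9.5 replicate 1 (0.0638) or E9.5 replicate 2 (0.0529). The other genes did not pass: Rspo1 differed by 0.43 (SE 0.73, limma adjusted p = 0.71), Fst by -0.34 (SE 0.45, adjusted p = 0.62) and Lhx9 by -0.64 (SE 0.46, adjusted p = 0.354).

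The d6 male and E9.5 arrays are balanced over array codes EA0831 and EA0842, with 1 array of each group in each. Of the 8 genes, 3 fell in d6 male cells and 0 rose, where 4.55% of all genes fell and 6.04% rose. Lhx9 fell by 2.51 (SE 0.46, limma adjusted p = 0.00969), Wt1 by 2.11 (SE 0.54, adjusted p = 0.0382) and Fst by 1.67 (SE 0.45, adjusted p = 0.0469). All d6 male values of these genes are dim, so the sizes are imprecise: with dim values set to 4.81 the changes were -0.77, -0.51 and -0.11, and none passed (adjusted p = 0.137, 0.36 and 0.723). On the 4 arrays alone none passed either (adjusted p = 0.135, 0.203 and 0.169). Within EA0831 the differences were -3.77 for Lhx9, -3.23 for Wt1 and -2.50 for Fst, and within EA0842 they were -1.25, -0.99 and -0.83, so the direction was the same and the size smaller in EA0842. Rspo1 differed by -2.30 (SE 0.73, limma adjusted p = 0.086) and Gata4 by 0.64 (SE 0.28, adjusted p = 0.21), and neither passed. Within EA0831 and EA0842 the differences were -3.1 and -1.5 for Rspo1 and 0.26 and 1.01 for Gata4. Each gained a call under 1 other setting. Over those settings the differences ran from -3.16 to -0.79 for Rspo1 and from -0.03 to 1.07 for Gata4.

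E9.5 replicate 1, the E9.5 array of EA0831, was the higher of its group in Lhx9, Wt1 and Fst. Without it, Lhx9 (adjusted p = 0.0549), Wt1 (0.149) and Fst (0.207) were all lost, in a fit where the lone E9.5 array is assumed to vary like the other groups. Fst was also lost with the replicate number as a block shared by all groups (adjusted p = 0.0635). That number matches the array code in the d6 male and E9.5 arrays but not in the other groups, so the block does not stand for array code. The replicate differences of d6 male and E9.5 cells had a correlation of 0.547, and their pairing by code was not modelled on its own. Wt1 was lost without d6 male replicate 1 (0.139) or replicate 2 (0.0964), and Fst without E9.5 replicate 2 (0.0758) or d6 male replicate 1 (0.193). The mesenchyme markers summed to 8.58 to 9.04 in d6 male cells and 9.95 to 11.06 at E9.5, and the red cell markers to 4.93 to 5.38 and 12.60 to 13.66. Their part in the falls was not tested.

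Several macrophage and blood markers were, like Amhr2, higher in d3ag6 cells. Of the 8 markers, 6 were tested, and 4 of these rose against d6 female, 5 against d3 and 5 against E12.5. The shares of all tested genes that rose were 4.03%, 5.81% and 5.95%. At E12.5 against d6 female, where Amhr2 rose, 0 of the 6 rose and 1 fell (9.33% and 10.1% of all genes). In d6 female cells against d3, where Amhr2 fell, 0 rose and 0 fell (1.72% and 2.34%). At E12.5 against E9.5, where Amhr2 rose, 1 rose and 0 fell (12.9% and 10.7%). Lyz2, a lysozyme, rose by 4.04 against d6 female (SE 0.32, limma adjusted p = 0.000599) and Tyrobp, a myeloid adaptor, by 1.86 (SE 0.23, adjusted p = 0.00309). Both d3ag6 arrays were high in Lyz1, at 9.26 and 9.56, while Ptprc, the leukocyte antigen CD45, read 5.35 and 3.72. Fcer1g, which like Ptprc was not tested, was dim on both d3ag6 arrays, at 4.69 and 4.79. None of the 8 markers stood at 0 on any array of any group. Their part in the Amhr2 difference was not tested, and neither was that of somatic cells in the sort. The 6 mesenchyme markers summed to 8.88 to 9.86 in d3ag6 cells, against 7.47 to 7.85 at E12.5 and 8.27 to 8.44 at d6 female. Of the 5 tested, Col3a1 alone rose against E12.5 (3.80, SE 0.46, limma adjusted p = 0.00159), and 0 rose against d6 female. The shares of all genes that rose were 5.95% and 4.03%.

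Partners of the 9 genes were read from lists of the same pathways. In the RSPO and WNT list, 14 of 20 genes were tested, and in d3ag6 cells against d6 female 1 rose, 1 fell and 12 did not pass (median 0.124, against 0.00729 over all genes). Among all tested genes, 4.03% rose and 2.36% fell there. Sp5, a target of β-catenin, read 6.89 and 7.84 in d3ag6 cells, against 4.64 and 4.13 at d6 female, and rose by 2.98 (SE 0.43, limma adjusted p = 0.00581). Rspo3, another R-spondin, had a call at -1.35 (SE 0.34, adjusted p = 0.0495), but all 4 arrays were dim, at 3.65 and 2.94 in d3ag6 cells, against 4.55 and 4.75 at d6 female. Axin2, a feedback inhibitor and target of the pathway, differed by 1.07 (SE 0.39, adjusted p = 0.149).

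At E12.5 against d6 female, Sp5 rose by 3.71 (SE 0.43, limma adjusted p = 0.000597) and Axin2 by 1.69 (SE 0.39, adjusted p = 0.0173), and Lgr4, an R-spondin receptor, fell by 0.72 (SE 0.16, adjusted p = 0.0155). These were the 3 called of 14 (median 0.239, against -0.00969 over all genes). In that comparison 9.33% of all genes rose and 10.1% fell. The d3 cells, which had not been aggregated, read 6.56 and 6.69 for Sp5.

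In the activin, BMP and anti-Müllerian hormone list, 17 of 20 genes were tested, and in d3ag6 cells against d6 female 4 rose, 1 fell and 12 did not pass (median 0.039). Over all tested genes, 4.03% rose and 2.36% fell. Inha, the inhibin alpha subunit made by granulosa and Sertoli cells, read 6.84 and 7.06 in d3ag6 cells, against 5.39 and 5.82 at E12.5 and 5.14 and 5.22 at d6 female. Both d3ag6 arrays exceeded those of the other groups, as for Amhr2. Inha rose by 1.77 against d6 female (SE 0.18, limma adjusted p = 0.00156) and by 1.35 against E12.5 (SE 0.18, adjusted p = 0.00306). Bmp7, a BMP ligand, rose by 0.87 against d6 female (SE 0.16, adjusted p = 0.0176), and Bmp4 fell by 1.39 (SE 0.24, adjusted p = 0.0145).

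At E12.5 against d6 female, 2 of these 17 rose and 3 fell, where 9.33% of all genes rose and 10.1% fell. Acvr2a, a type 2 activin receptor, rose by 0.95 (SE 0.22, limma adjusted p = 0.0177), and Fstl3, a relative of follistatin, fell by 1.30 (SE 0.35, adjusted p = 0.0314), while Fst rose there. Bmp4 fell by 1.24 (SE 0.24, adjusted p = 0.0084).

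Further markers of the ovarian somatic lineage were read in the same way. Of 12 other pregranulosa markers 8 were tested, and limma called 0 of them in d3ag6 cells against d6 female, with 5 at an unadjusted p under 0.05, where 22.8% of all genes were (median 0.406, against 0.00729 over all genes). Gng13 differed by 1.89 (SE 0.69, adjusted p = 0.147) and Kitl, which encodes the KIT ligand, by 1.21 (SE 0.44, adjusted p = 0.147). Nr0b1 went the other way, by -1.02 (SE 0.37, adjusted p = 0.147). Against d3, 1 of the 8 rose in d3ag6 cells, Gng13 (3.03, SE 0.69, adjusted p = 0.0249). Another 1 fell, Nr0b1 (-2.8, SE 0.37, adjusted p = 0.00217). Among all tested genes, 5.81% rose and 4.84% fell there. Nr0b1 also fell in d6 female cells against d3 (-1.78, SE 0.37, adjusted p = 0.0351). Of 15 genes of the gonad primordium and coelomic epithelium 10 were tested, and limma called 0 in d3ag6 cells against d6 female. There 1 had an unadjusted p under 0.05, against the same 22.8%. That 1 gene was Nr2f1, an orphan nuclear receptor (1.97, SE 0.54, adjusted p = 0.0663), dim on all 4 arrays.

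Of 13 testis markers, 5 passed the filter, and Dmrt1, a gene that germ cells also express, was the 1 that rose in d3ag6 cells against d6 female (1.0, SE 0.22, limma adjusted p = 0.0296). The share of all tested genes that rose was 4.03%. Ptgds, a prostaglandin synthase of Sertoli cells, differed by 2.56 (SE 0.64, adjusted p = 0.05). Amh, the ligand of AMHR2, was listed at 0 on 11 of the 12 arrays, both d3ag6 arrays among them.

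The genes whose pattern over the 12 arrays was most like that of Amhr2 were Snap47 (r = 0.941), Bnip5 (0.936) and Tef (0.93). Tef read 8.70 and 8.90 in d3ag6 cells, against 8.17 and 8.17 at E12.5 and 7.67 and 7.70 at d6 female. Those most like Rspo1 were Ddx50 (0.944), Papss1 (0.941) and Fam133b (0.913), and those most like Lhx9 were Dll1 (0.901), Prrx1 (0.889) and Aldh1a2 (0.88), which encodes an enzyme of retinoic acid synthesis. Among the 9 genes themselves, Wt1 and Lhx9 were the closest pair (0.835), followed by Rspo1 and Lhx9 (0.784), whereas Amhr2 and Lhx9 reached 0.163. These correlations describe 12 arrays that share groups and array codes.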

How the data were processed

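Cells were sorted by reporter fluorescence, and cDNA made from 5 ng of RNA went through PCR amplification (12 cycles in the first round) and was hybridised as biotin-labelled cRNA, per the labels' protocols. The authors deposited a log2 signal for each of 45101 probe sets on every array; the log2 scale was read from the range of the values, and the summarisation and normalization are not given in the sources used here. Array medians ran from 4.73 to 4.87, and 2.07% to 2.3% of an array's probe sets stood at 0. No column was left without a sample. Because the medians differed by more than 0.1, values were quantile normalized with limma 3.58.1 in R 4.3.3.

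Probe sets were named through the platform annotation: 34958 had 1 gene, 932 several and 9211 none there, and 34754 of the first were matched to the RefSeq gene table. Each of 18194 genes was its brightest probe set, and 13436 with at least 2 arrays above 4.81 were tested. limma fitted 1 mean per group over all 12 arrays with 6 residual degrees of freedom, then eBayes, two-sided, with Benjamini-Hochberg adjustment and a call at an adjusted p under 0.05. The steps were tested on simulated data. The members, comparisons and 10 lists were chosen with earlier results of these data known. Named beyond the 9 genes were the 3 genes most correlated with each. Up to 3 of each list were also named, by adjusted p in d3ag6 and in E12.5 against d6 female. Part of these is printed, and Ctss, Ptprc and Fcer1g were chosen after their values were seen. Same-numbered arrays did not deviate together throughout (correlation of replicate differences -0.252 to 0.547 over 15 pairs of groups, 8 of them above 0.1), so no block was used. Tables and figures were made in Python 3.11.15 with pandas 2.3.3, numpy 2.4.6 and matplotlib 3.10.9. Other settings are given at the end.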

Additional observations from a re-analysis of the deposited data

How the results depend on the processing

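Having 2 arrays in each group limited every result, and no detection calls were used. Of 712 values of the 8 tested genes under other settings, 605 kept their direction and side of the threshold, 68 lost a call, 13 gained one and 26 changed sign, 0 of them a change called with all 12 arrays. With the probe set of second highest mean, Wnt4 turned to 1.58 at E12.5 against d6 female (the 1 sign change that passed, adjusted p = 0.032), -1.48 in d6 male against E9.5 and 0.07 in d3ag6 against d3, and Gata4 to -0.46 in d3ag6 against d6 female, -0.36 in d3ag6 against E12.5 and -0.03 in d6 male against E9.5. With the mean of all probe sets, Wnt4 turned to 0.77 at E12.5 against d6 female and -0.70 in d6 male against E9.5, Gata4 to -0.13 in d3ag6 against d6 female and Amhr2 to -0.16 in d6 male against E9.5. With values as deposited, Lhx9 turned to 0.02 in d3ag6 against E12.5 and Wnt4 to 0.01 at E12.5 against d6 female, and with dim values set to 4.81 Gata4 turned to -0.06 at E12.5 against E9.5. The other 13 sign changes came from leaving out 1 array, none with a call. In d3ag6 against E12.5 these values ran from -0.35 to 0.39 for Rspo1 and -0.10 to 0.03 for Lhx9, in d6 female against d3 from -1.11 to 1.24 for Rspo1 and -0.72 to 0.37 for Wt1, and at E12.5 against d6 female from -0.40 to 0.01 for Gata4. At E12.5 against E9.5 they ran from -0.44 to 1.29 for Rspo1, -0.17 to 0.46 for Foxl2, -0.33 to 0.53 for Gata4 and -1.34 to 0.49 for Wt1, and in d6 male against E9.5 from -0.04 to 0.18 for Wnt4. The causes were not tested beyond what each setting leaves out.

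Leaving out 1 array leaves a lone array in its group, assumed to vary like the other groups. In these fits the count of all genes called ran from 588 to 955 for d3ag6 against d3 (1430 with all arrays), 193 to 356 for d3ag6 against d6 female (859), 363 to 573 for d3ag6 against E12.5 (1213), 112 to 461 for d6 female against d3 (545), 1135 to 1475 for E12.5 against d6 female (2611), 1387 to 2541 for E12.5 against E9.5 (3170) and 849 to 1105 for d6 male against E9.5 (1424). Of the 8 tested genes, 0 to 2, 1 to 2, 0 to 1, 0 to 1, 0 to 1, 0 to 1 and 1 to 3 were called in that order.

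With the filter at the 75th percentile, 0 of the 9 genes were called in any of the 7 comparisons, since none of them had 2 arrays above 7.59 and none was tested. With no filter, d3ag6 against d6 female had 419 genes called and 1 of the 9, d3ag6 against E12.5 had 775 genes, d6 female against d3 had 313 genes and 0 of the 9, and d6 male against E9.5 had 1 of the 9. With the mean of all probe sets, d3ag6 against E12.5 had 796 genes, d6 female against d3 had 338 genes and 0 of the 9, E12.5 against d6 female 1, E12.5 against E9.5 0 and d6 male against E9.5 1. Fitted on the 4 arrays of each comparison alone, d3ag6 against d3 had 765 genes and 1 of the 9 (Lhx9, with Amhr2 and Rspo1 lost), d3ag6 against d6 female 569 genes, d3ag6 against E12.5 2 of the 9, d6 female against d3 148 genes and 0 of the 9, E12.5 against d6 female 5 of the 9, and d6 male against E9.5 291 genes and 0 of the 9.

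With values below 4.81 set to it, 1 of the 9 was called in d3ag6 against d3, d3ag6 against d6 female and E12.5 against d6 female, and 0 in d6 female against d3 and d6 male against E9.5. A change of at least 2-fold as a further condition left 905 genes for d3ag6 against d3, 778 for d3ag6 against E12.5, 1575 for E12.5 against d6 female and 1849 for E12.5 against E9.5. With only the 8 arrays coded EA1013, chosen after seeing the data, 4 of the 9 were called in d3ag6 against d3, 5 in d3ag6 against d6 female and 0 in d6 female against d3. With the replicate number as a block, Fst in d6 male against E9.5 lost its call (-1.67, adjusted p = 0.0635).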
